A study of Mus musculus with 108 samples.

Results

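The mouse trypsinogen family, the inactive precursors of the digestive protease trypsin, was followed across single acinar cells, which make and secrete the digestive enzymes of the pancreas. Its members were taken by gene symbol: Prss1, Prss2, Prss3, Try4, Try5, Try10, 2210010C04Rik, 1810009J06Rik, Gm5771 and Gm10334. All 10 were found among the 45195 gene rows of the deposited table. Each sample of the study was a single acinar cell from the pancreas of an untreated male C57BL/6 mouse aged 12 weeks, and transcripts were amplified from oligo-dT primed cDNA by a modified SMART-seq2 procedure without molecular identifiers. There was 1 group, with no treated or mutant arm, and no animal, day or plate was named, so the group counted as 1 sample. Accordingly no p-value was computed, and each SD below is the spread over all cells, 87 with a full deposited total and 21 with a short one (defined below).

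Acinar cells store trypsinogen in zymogen granules together with the other digestive enzymes. In the gut, enteropeptidase cuts off a short propeptide that ends in a run of aspartates and a lysine, and the trypsin so formed activates further trypsinogen and most other pancreatic zymogens. Activation inside the acinar cell is held in check by an inhibitor, Spink1, and by proteases that degrade trypsinogen, and its failure is known from hereditary pancreatitis. Values are TPM, which divide a gene's reads by its transcript length, so levels of different genes can be set side by side. A gene was called detected at or above 1 TPM.

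The cells carried the acinar programme. Of 10 acinar markers, 8 were detected in every cell and 0 in no cell, with a summed level of 213424 to 325875 TPM. No cell held more than 2 of 8 endocrine, 2 of 8 T lymphocyte or 2 of 6 macrophage markers. Ins1, Sst, Ppy, Chga, Cd3e, Trac, Cd4 and Cd8a were detected in no cell. The markers of these lists found in the most cells were Ins2 (4 cells), Trbc2 (10 cells) and C1qa (16 cells). At least 3 of 8 ductal markers were present in 31 cells (summed level 12.3 to 376 TPM, with Cftr in no cell), and at least 3 endothelial or stellate markers in 1 cell each. A median of 4156 genes was detected per cell, from 2624 to 6946. No pair of cells held identical values, and the highest Pearson correlation between any pair was 0.93. In 21 cells, numbered 92 and above, the deposited values summed to only 788380 to 990520 TPM. These are called short-total cells. The other 87, full-total cells, summed to 1000000 within rounding. Depth in reads cannot be read from TPM and is unknown.

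The activation site is coded alike in most members. Below are the coding bases around it, taken from the GENCODE M21 transcripts on GRCm38 and written 5' to 3'. The capitals mark the last 5 codons of the propeptide, immediately before the bond that enteropeptidase cuts.
Prss2: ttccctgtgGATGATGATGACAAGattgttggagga
Try4: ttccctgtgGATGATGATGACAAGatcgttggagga
Prss3: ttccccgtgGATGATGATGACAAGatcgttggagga
2210010C04Rik: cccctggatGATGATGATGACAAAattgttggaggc
Gm5771: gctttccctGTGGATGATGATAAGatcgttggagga
1810009J06Rik: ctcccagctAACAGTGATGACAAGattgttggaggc
Try5 and Prss1 had the same 36 bases as Try4, Gm10334 had those of Prss3, and Try10 differed from Prss2 outside the capitals only. In 8 members the capitals read as 4 aspartate codons and 1 lysine codon. Gm5771 had a valine codon and 3 aspartate codons before its lysine, in a coding sequence 1 codon shorter than that of Prss2. In 1810009J06Rik, asparagine and serine codons stood in place of the first aspartates, which left 2. Every member kept the codons of the catalytic histidine and serine motifs. In the stretch after the site, 2210010C04Rik, known as the mouse cationic trypsinogen, had 17 codons for lysine or arginine against 11 for aspartate or glutamate. Prss2, an anionic trypsinogen, had 10 against 20.

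All members lie on chromosome 6 (GRCm38), within a span of 560 kb, and each has 5 exons. The outer pair is 1810009J06Rik at chr6:40964754-40968435 on the plus strand and 2210010C04Rik at chr6:41030268-41035509 on the minus strand. The other 8 form a block at chr6:41302269-41525079. In order they are Try4 (41302269 to 41305532), Try5 (41311233 to 41316841), Try10 (41354105 to 41357914), Prss3 (41373814 to 41377678), Gm5771 (41392356 to 41397230), Gm10334 (41442216 to 41446145), Prss1 (41458932 to 41463786) and Prss2 (41521787 to 41525079). Within the block, Try5, Prss3 and Gm10334 are on the minus strand. The family is interleaved with the T-cell receptor beta genes.

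The family filled a large share of the transcriptome. Its members summed to 191097 ± 24769 TPM (SD over all cells), or 19.3% ± 2.45 of each cell's deposited total. The share was lowest in cell 22 at 14.1%, had a median of 19.2% and was highest in a short-total cell at 26.2%. The spread between cells was therefore narrow for the family as a whole, with a CV (SD over mean) of 0.130 for the summed TPM. Of the 10 members, 9 were detected in every cell, whereas 1.78% of all gene rows were.

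Prss2 stood at the top of the family in every cell. It averaged 102391 ± 10953 TPM, with a lowest value of 75200 TPM in cell 8, a median of 101087 TPM and a highest of 122132 TPM in cell 78. It supplied 53.9% ± 4.67 of the family's TPM, and between 41.9% and 63.1% in single cells. Try4 followed at 41518 ± 10046 TPM (15502 to 70035, median 41156). The ranges of Prss2 and Try4 did not overlap, and Prss2 exceeded Try4 in every cell.

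Try5 was the abundant member that differed most between cells. It averaged 33529 ± 15915 TPM, from 10734 TPM in cell 40 through a median of 29460 TPM to 89421 TPM in cell 85. Cell 39 and a short-total cell came next, at 88163 and 74861 TPM. Try4 exceeded Try5 in 75 cells and Try5 exceeded Try4 in 33, so these neighbours in rank did not separate. The ratio of Try5 to Try4 ran from 0.238 in cell 49 to 3.03 in cell 85. Their sum had a CV of 0.250, close to the 0.242 of Try4 alone and below the 0.475 of Try5.

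The cationic trypsinogen 2210010C04Rik was the most even member beside Prss2. It averaged 12403 ± 1443 TPM (9538 to 17184, median 12348), a CV of 0.116 against 0.107 for Prss2. It lay below Try5 in all but 2 cells and above Try10 in every cell, where the ranges did not overlap. Prss2 exceeded it between 5.33-fold in cell 8 and 11.4-fold in cell 80. Its annotated transcript is 2142 bases long, against 798 to 882 for the other members, and TPM divide by length. Weighted back by transcript length, 2210010C04Rik took 15.7% ± 2.64 of the family in place of 6.61% ± 1.24, and Prss2 took 48.95% ± 4.00.

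These 4 members made up 99.3% of the family's TPM on average. The other 6 supplied 0.667% ± 0.643, with 6.17% in cell 37 as the highest share. Variation in the family total came from the same few genes: Try5 carried 47.1% of its variance over cells, Prss2 31.5% and Try4 22.1%, while 2210010C04Rik carried -0.673%, as its values ran slightly against the total.

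**Figure D1:**
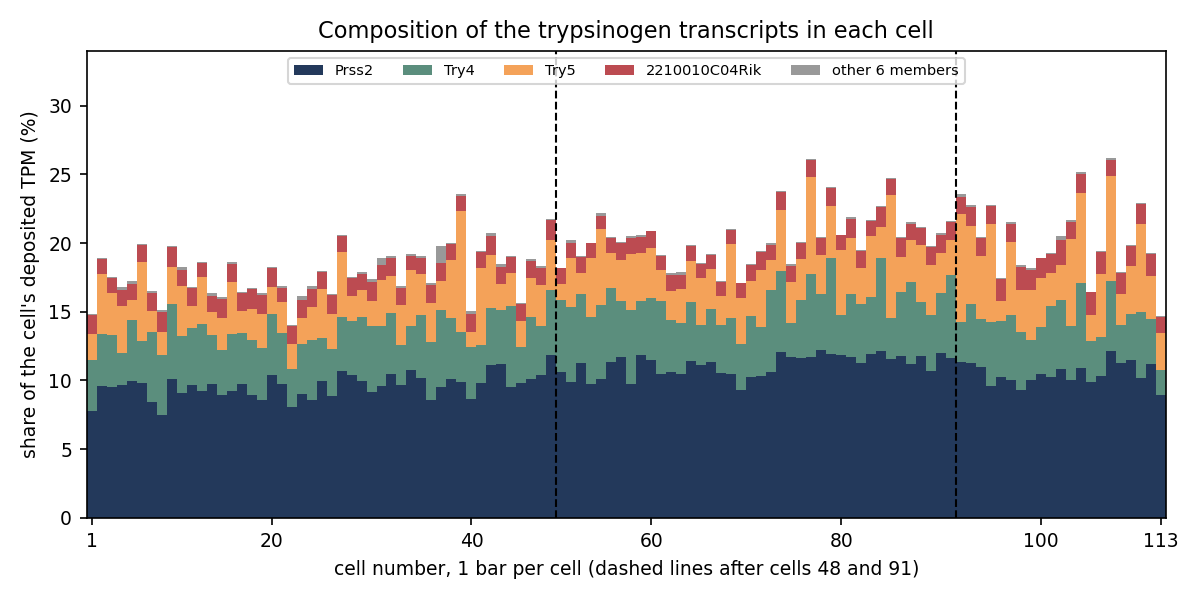
Share of each cell's deposited TPM (vertical axis, percent) taken by Prss2, Try4, Try5, 2210010C04Rik and the other 6 members together, with 1 stacked bar per cell in order of cell number. Prss2 is the largest segment in every bar, the Try5 segment changes most in height, and the family reaches 26.2% in 1 short-total cell.

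Below the abundant members the levels were lower by more than an order of magnitude, and the spread was wider. Try10 averaged 734 ± 428 TPM, from 218 TPM in cell 41 to 2462 TPM in cell 5, with a median of 632 TPM. Prss3 averaged 314 ± 631 TPM around a median of 148 TPM, from 12.98 TPM in a short-total cell to 5890 TPM in cell 37. Try10 exceeded Prss3 in 98 cells. For Prss3 the SD was larger than the mean, and a few cells held very high values.

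Gm5771, Gm10334 and Prss1 were the least abundant of the members found in every cell. Gm5771 averaged 84.9 ± 261 TPM (15.4 to 2689, median 45.1). Gm10334 averaged 66.5 ± 107.3 TPM (4.18 to 1005, median 46.1), and Prss1 55.2 ± 55.3 TPM (1.05 to 351, median 36.2). The order among them did not hold from cell to cell: Gm5771 exceeded Gm10334 in 63 cells and Gm10334 exceeded Prss1 in 58. Prss1, the gene whose symbol matches that of the main human cationic trypsinogen, thus had a mean 1856-fold below that of Prss2.

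1810009J06Rik was nearly absent. It was listed at 0 in 95 cells and detected in 8 (7.41%, exact Clopper-Pearson 95% interval 3.25% to 14.1%, counting error only). Cell 51 held 153.72 TPM, cell 38 held 33.26 TPM and cell 83 held 6.47 TPM, and the remaining 5 held at most 2.21 TPM.

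**Figure D2:**
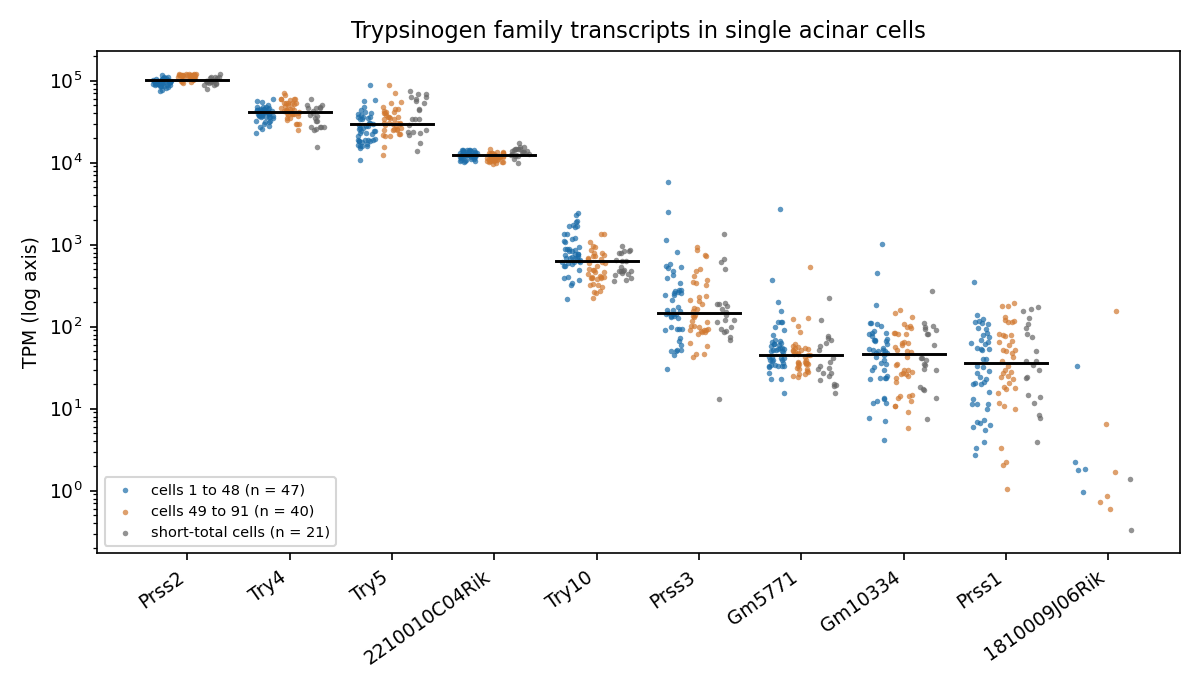
TPM of each member (log axis) in single cells, 1 point per cell, in order of mean, with cells 1 to 48, cells 49 to 91 and the short-total cells in 3 colours and a black line at the median of all cells. Values of 0 are not drawn, which leaves 13 points for 1810009J06Rik, and the cloud of Prss2 lies wholly above that of Try4.

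Spread was next set against that of other genes of similar level. The squared CV was compared with its trend on mean TPM over the 7227 genes detected in at least 11 cells (10% of cells), and a gene was called variable at 2 times the trend or more, which took in 12.0% of those genes. 1810009J06Rik was in too few cells to enter. Of the other 9 members, 7 were called variable. Prss2 and 2210010C04Rik were not, at 0.718 and 0.516 times the trend. With each cell scaled to its TPM outside the digestive enzymes they lay above the trend, at 1.23 and 1.18 times, and were still not called. Try4 stood at 2.97 times the trend and was the variable member nearest the threshold, Try10 at 6.90, Prss1 at 9.97 and Try5 at 10.9. Gm10334, Prss3 and Gm5771 stood at 27.5, 68.7 and 108.7 times. The same 7 were called within cells 1 to 48 and within cells 49 to 91, where 13.5% and 12.8% of tested genes were.

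Single cells set part of that spread. Cell 37 held the highest Prss3 (5890 TPM), Gm5771 (2689 TPM), Gm10334 (1005 TPM) and Prss1 (351 TPM) of all cells and the second highest Try10 (2270 TPM). Its Prss2, at 94919 TPM, ranked 85th, its family share was 19.8%, and it had 3868 genes detected. Cell 31, a short-total cell and cell 24 followed for Prss3, at 2513, 1341 and 1139 TPM, and held the next 3 highest Gm10334 values in the same order (449, 269 and 182 TPM). Without cell 37, Gm5771 stood at 11.9 times the trend, Prss3 at 25.3 and Gm10334 at 9.79. All were still called variable, as were 12.1% of tested genes.

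Members were then compared by Spearman correlation over all cells. These correlations are descriptions: cells share 1 protocol, TPM share a fixed total, and the members share sequence. Over the 36 pairs of the 9 tested members the median was 0.136, against 0.056 over all pairs of tested genes. A correlation of 0.3 or more was found for 8 of the 36 pairs, against 1.36% of all gene pairs. Of the 36, 11 were negative, near the background of 29.8% of all gene pairs. These counts depended on the scaling. With each cell scaled to its TPM outside the digestive enzymes, a divisor that all members share, 19 pairs reached 0.3 and 1 was negative. With median-of-ratios scaling (each cell scaled by its median ratio over genes present in every cell) 12 reached 0.3 and 2 were negative.

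The low-abundance members Prss3, Gm10334 and Gm5771 varied together from cell to cell. Prss3 with Gm10334 stood at 0.81, Gm5771 with Gm10334 at 0.78 and Prss3 with Gm5771 at 0.62. Without cell 37 the values were 0.80, 0.77 and 0.61, and within cells 1 to 48, cells 49 to 91 and the short-total cells they lay between 0.40 and 0.86. Gm10334 in turn followed Prss1 at 0.52. The ratio of Gm10334 to Prss3 had a median of 0.214 and ran from 0.0803 in cell 5 to 1.30 in a short-total cell, so the pair did not keep a fixed proportion.

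**Figure D3:**
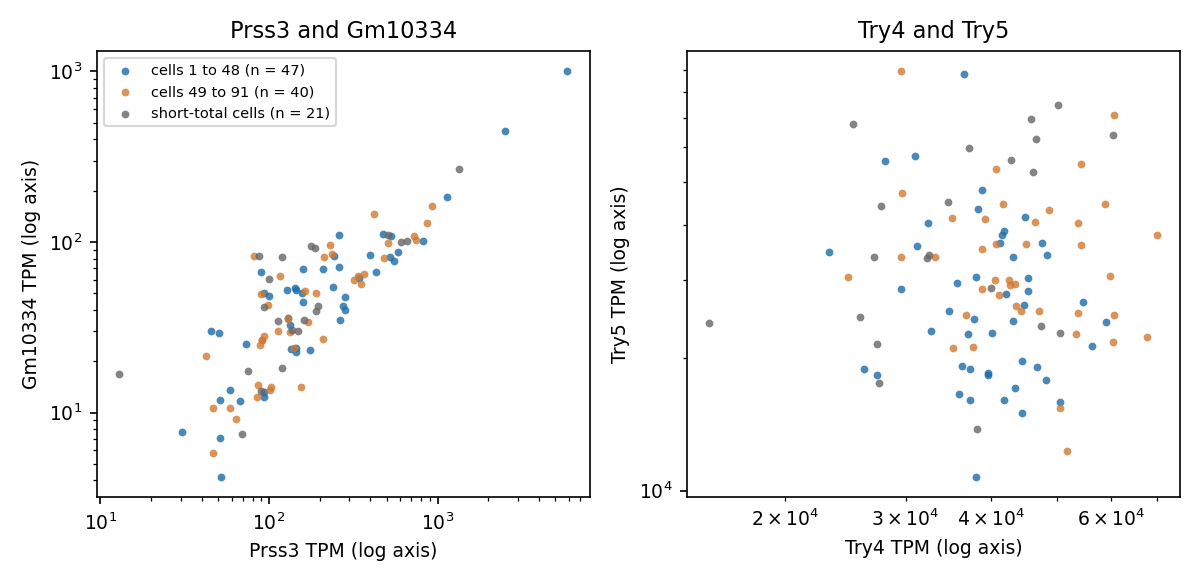
TPM of Gm10334 against Prss3 (left) and of Try5 against Try4 (right), both axes log, 1 point per cell and coloured by range of cell number. The left pair climbs together up to cell 37 at the upper right (Spearman 0.81), while the right pair shows no slope (-0.017).

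The abundant members showed no such relation in TPM, but this depended on the scaling. Among Prss2, Try4, Try5 and 2210010C04Rik, the 6 pairs had a median correlation of 0.0014 and 0 reached 0.3 before rounding, the highest being Prss2 with Try5 at 0.30. When each cell was scaled to its TPM outside the digestive enzymes, the median of these pairs was 0.63 and all 6 reached 0.3. With median-of-ratios scaling it was 0.47 and 4 did. Over all gene pairs the median was 0.058 and 0.015 under those scalings, and 1.68% and 0.34% of pairs reached 0.3. In the first scaling the members are all divided by a remainder that excludes them, whereas most background genes are part of it. That background is therefore no control for the shared divisor, whose part in the higher correlations was not tested. Prss2 with 2210010C04Rik turned from -0.15 in TPM to 0.83 outside the digestive enzymes, and Try4 with Try5 from -0.017 to 0.34. By range of cell number in TPM, Prss2 with 2210010C04Rik stood at -0.30 in cells 1 to 48 and at 0.58 in cells 49 to 91. Prss3 with Gm10334 changed little, at 0.83 outside the digestive enzymes.

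In TPM, correlation ran alongside sequence identity. Coding sequences of the tested members were 74.5% to 99.1% identical, with a median of 91.6%. Prss3 and Gm10334, the most correlated pair, were also the most alike at 99.1%. Gm5771 and Gm10334 were 96.6% identical, and Prss3 and Gm5771 96.2%. Over the 36 pairs the Spearman correlation between identity and co-variation in TPM was 0.60, a description, since the pairs share genes. Try4 and Try5 fell outside the pattern, with 97.4% identity and a correlation of -0.017. So did Prss3 and Prss1 at 96.4% and 0.12, Try4 and Try10 at 95.4% and 0.11, and Try5 and Try10 at 93.5% and -0.24, among others.

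**Figure D4:**
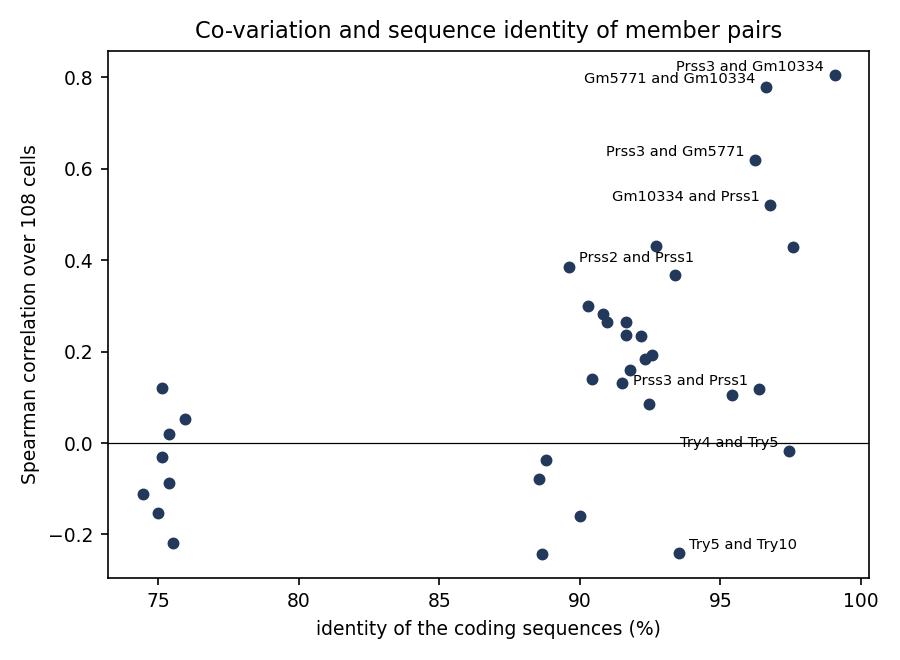
Spearman correlation in TPM over all cells (vertical axis) against percent identity of the coding sequences (horizontal axis) for the 36 pairs of tested members, 1 point per pair. The pairs of Prss3, Gm10334 and Gm5771 lie at the upper right, Try4 and Try5 lie near 0 at 97.4% identity, and the pairs near 75% all include 2210010C04Rik.

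The same likeness limits how well reads can be told apart. Of all stretches of 100 bases, the read length, in the annotated transcripts, 100.0% were unique to the gene for Prss2 and for 2210010C04Rik. The unique share was 88.4% for Try10, 78.2% for Prss1, 74.5% for Gm5771, 74.4% for Try5 and 69.8% for Try4. It was 58.2% for Gm10334 and 55.05% for Prss3, which had 325 such stretches in common, and 32.4% for 1810009J06Rik, most of whose stretches also occur in the neighbouring gene Gm2663. The separate values of Prss3 and Gm10334, of Try4 and Try5, and of 1810009J06Rik are therefore uncertain. So are those of Gm5771, with 98 stretches in common with Gm10334, and of Prss1, with 94 in common with Gm5771. The part of shared stretches in the correlations was not tested.

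Ranges of cell number were compared as a description, because the animal, day or plate of a cell is not given. In cells 1 to 48 (47 cells) the family took a median of 17.9% of the deposited total, in cells 49 to 91 (40 cells) 20.3%, and in the short-total cells 19.9%. The ranges overlapped, at 14.1% to 23.5%, 17.1% to 26.1% and 14.7% to 26.2%. On the log2(TPM + 1) scale the family total was higher by 0.18 in cells 49 to 91 than in cells 1 to 48, against -0.031 for the median of all tested genes. Scaled outside the digestive enzymes it was higher by 0.49, against 0.18 over all tested genes, and with median-of-ratios scaling by 0.30.

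The members did not shift alike between those ranges. Prss2 had medians of 96467 TPM in cells 1 to 48, 113462 TPM in cells 49 to 91 and 98978 TPM in the short-total cells. Try10 went the other way, at 764, 493 and 496 TPM, a log2 difference between the first 2 ranges of -0.63, which stayed below 0 under each scaling (-0.43 at the smallest). Medians of 2210010C04Rik were 12528, 11705 and 13624 TPM, and the sign of its difference between cells 49 to 91 and cells 1 to 48 changed with the scaling (-0.098 in TPM, 0.15 outside the digestive enzymes). Gm10334, Prss3 and Gm5771 also changed sign, from -0.35, -0.22 and -0.24 in TPM to 0.15, 0.026 and 0.046 outside the digestive enzymes. In that scaling the median of all tested genes was itself 0.18, above these values and that of 2210010C04Rik. With median-of-ratios scaling, where the median of all tested genes was 0, Gm10334, Prss3 and Gm5771 stood at -0.093, -0.21 and -0.17. In short-total against full-total cells the median over all tested genes was -0.148. Try5 stood at 0.25 and 2210010C04Rik at 0.18 above full-total cells there, and Gm5771 at -0.50, with the same signs under each scaling.

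Genes outside the family were ranked by their correlation with the family total. Only 0.111% of the 7218 tested genes outside the family reached 0.3 and 1.19% lay at -0.3 or below. Gm5409, a pseudogene within the trypsinogen block (chr6:41416912-41419589), stood first at 0.52, although it averaged only 2.27 ± 2.51 TPM. It followed Prss1 at 0.75, and at 0.70 and 0.77 within cells 1 to 48 and 49 to 91. Its transcript had 39 stretches of 100 bases in common with that of Try10 and 0 with that of Prss1, and whether its reads came from family transcripts was not tested. Reg3a and Reg2, secreted lectin-like proteins of the regenerating family, came next at 0.41 each. Within cells 1 to 48, cells 49 to 91 and the short-total cells, Reg3a stood at 0.33, -0.17 and 0.24 and Reg2 at 0.096, 0.089 and 0.19. The lowest values among rows with a symbol belonged to Serpinb1a, an intracellular inhibitor of serine proteases, at -0.46 and Lamp2, a lysosomal membrane protein, at -0.43. Within cells 1 to 48, cells 49 to 91 and the short-total cells, Serpinb1a stood at -0.27, -0.37 and -0.32 and Lamp2 at -0.42, -0.28 and -0.13.

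Single members had different companions. Try4 was nearest to the chymotrypsinogen Ctrb1 and the elastase Cela3b at 0.45 each and to Reg1 at 0.43. It ran against the lipase-related Pnliprp1 at -0.55 and the granule membrane protein Gp2 at -0.47, and both lay at -0.58 or below in cells 1 to 48 and 49 to 91, but at -0.20 in the short-total cells. Try5 ran against Zg16, a granule lectin, at -0.53 (-0.44 and -0.43 by range) and was nearest to the ribosomal protein pseudogene Rpl10-ps3 at 0.40, followed by the mitochondrial carboxykinase Pck2 at 0.40. 2210010C04Rik had Pck2 among its lowest, at -0.44. Prss2 was nearest to Reg3a at 0.55, but at 0.16 and -0.12 by range. Gm5771 and Gm10334 shared Dhrs4, a short-chain dehydrogenase of low level (1.39 ± 1.10 TPM), as their first gene, at 0.45 and 0.39. For Prss1 the lowest was the insulin receptor Insr at -0.46 (-0.37 and -0.58 in cells 1 to 48 and 49 to 91, -0.059 in the short-total cells). For Try10 the highest was Gal, the galanin precursor, at 0.38 (0.13, 0.37 and 0.040 in the same sets). For Prss3 the highest was Dnajc21, a co-chaperone, at 0.40, with a mean below the detection level (0.874 ± 0.591 TPM). Companions of the members and of the family total were ranked in TPM only, and other scalings were not tried for them.

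Trypsin control was followed as a list of 21 genes, of which 20 were matched and 11 were tested. The list also held genes that do not act on trypsinogen itself, such as Cst3 and F2rl1. Of these 11, 0 were variable (background 12.0%), 0 correlated with the family total at 0.3 or more and 1, the chymotrypsin-like protease Ctrl, lay at -0.33. The median correlation was -0.115, against -0.044 over all genes. Spink1, the trypsin inhibitor of the granule, averaged 2707 ± 601 TPM (1550 to 4438) and correlated with the family total at 0.23. The family exceeded Spink1 73.6 ± 17.1-fold in TPM, from 40.96-fold in cell 26 to 143.6-fold in the short-total cell with the highest family share. Ctrc, the chymotrypsin C gene, averaged 225 ± 44.5 TPM and stood at -0.25. These are transcript levels, and whether working Ctrc protease was made was not measured.

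Lysosomal cathepsins were far lower. Ctsb, which can activate trypsinogen, averaged 6.23 ± 1.91 TPM, Ctsl, which degrades it, 37.5 ± 11.1 TPM, and Ctsd, which processes Ctsb, 25.8 ± 7.84 TPM. Each was detected in every cell, with correlations to the family total of 0.00089, -0.069 and -0.11. The pancreatic serpin Serpini2 averaged 229 ± 54.2 TPM and the cystatin Cst3, an inhibitor of cathepsins, 166 ± 27.6 TPM, both in every cell. Tmprss15, which encodes enteropeptidase, was at 0 in every cell, as were the antitrypsin genes Serpina1a to Serpina1e and A2m, the alpha-2-macroglobulin. A count of 0 over these cells allows a share of up to 2.78% of cells at 1 TPM or more (3 cells, counting error only), and it sets no limit on cells that express the gene below what was captured. F2rl1, a receptor that trypsin cleaves, reached at most 0.86 TPM.

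The zymogens that trypsin activates were followed as a list of 12. They took 39.98% ± 2.35 of the TPM and all 12 were tested. Cela3a (8.89 ± 9.76 TPM) was variable, 1 of 12 against a background of 12.0%. Ctrb1, the most abundant, averaged 100168 ± 16740 TPM at 1.74 times the trend. None reached 0.3 with the family total, and those at -0.3 or below included Cela1 and Cela2a at -0.37 and Ctrl at -0.33. The 12 enzymes that need no activation by trypsin took 23.9% ± 3.56, with 3 of 12 variable (background 12.0%) and 0 beyond 0.3 in either direction. The 3 were the amylases Amy1, Amy2a1 and Amy2a5. Amy2a2, Amy2a3 and Amy2a4 each had 14589 ± 2633 TPM and the same correlations, so these rows are not separate estimates. The summed amylases correlated with the family total at -0.20, and at -0.20 and -0.30 in cells 1 to 48 and 49 to 91, but at 0 in the short-total cells. As all these values divide a fixed total, a higher share of some enzymes leaves less for others, and the part of this in the negative values was not tested.

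The sequences before the start sites of the most and the least abundant members found in every cell, and of the cationic form, were also read (RefSeq, GRCm38.p6). Promoter entries matched 7 of the 10 members: Prss1, Prss2, Prss3, Try4, 2210010C04Rik, Gm5771 and Gm10334. The motifs were CACCTG and TTTCCC, the E-box and TC-box letters known from binding by the acinar factor PTF1, searched on both strands, and TATAAA on the gene's strand. No match of one motif overlapped a match of another in the windows shown. The printed 250 bases end at the base before the start, and capitals mark the matches.
Prss2, chr6:41521526-41521775, plus strand: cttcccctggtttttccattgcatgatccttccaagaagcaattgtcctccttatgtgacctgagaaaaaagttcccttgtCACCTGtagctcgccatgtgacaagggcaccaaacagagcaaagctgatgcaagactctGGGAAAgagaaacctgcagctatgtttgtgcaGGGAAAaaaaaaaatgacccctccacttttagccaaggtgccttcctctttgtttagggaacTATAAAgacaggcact
Prss1, chr6:41458680-41458929, plus strand: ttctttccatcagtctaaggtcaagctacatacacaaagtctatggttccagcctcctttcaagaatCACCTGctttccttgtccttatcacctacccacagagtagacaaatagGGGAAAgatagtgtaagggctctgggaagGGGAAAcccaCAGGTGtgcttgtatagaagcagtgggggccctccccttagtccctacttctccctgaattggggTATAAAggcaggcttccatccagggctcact
2210010C04Rik, chr6:41035510-41035759, minus strand: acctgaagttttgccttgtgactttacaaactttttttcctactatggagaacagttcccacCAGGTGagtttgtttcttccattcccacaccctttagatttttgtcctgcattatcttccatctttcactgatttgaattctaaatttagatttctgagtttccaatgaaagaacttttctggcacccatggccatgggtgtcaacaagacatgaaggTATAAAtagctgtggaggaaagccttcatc
All 7 entries held CACCTG, which 17.2% of 32851 promoter windows of the same length hold, and all 7 held TATAAA, which 7.59% hold. The 7 windows are not separate cases, as some are alike in sequence. Identity between pairs of windows ran from 44.6% to 84.6% for Prss3 and Gm10334, with Prss1 and Gm5771 at 83.7%. TTTCCC was present in Prss2, Prss1 and Gm5771, with 2 matches each, and in 21.9% of all windows. The window of Prss1 held every motif that the window of Prss2 held, with CACCTG at 2 places against 1. Whether these motifs bear on the levels of the members was not tested. The letters of 2210010C04Rik included CACCTG and TATAAA but no TTTCCC. A match is a description of letters and not a measured binding site.

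Within 200 kb of the family, 82 other genes are annotated and 81 were in the table. Of these, 64 were detected in no cell, as were 71.3% of all gene rows. Of the 52 T-cell receptor genes among them, 47 were detected in no cell. Apart from the family, only Gm5409 (66 cells), the predicted gene Gm4744 (30 cells, 0.951 ± 2.04 TPM) and the calcium channel gene Trpv6 (22 cells, 0.6005 ± 0.686 TPM) were detected in at least 11 cells, as were 7227 of all 45195 rows. No neighbour exceeded 16.78 TPM in any cell.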

How the data were processed

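Polyadenylated RNA of 108 single acinar cells was read as TPM, the unit of the authors' deposited table (45195 gene rows, 2 decimals, unit taken from the values). Per the submitters' processing notes STAR 2.4.2a, RSEM 1.2.21, edgeR and mm10 were used, with no role or order given, and the annotation is not given in the sources used here. RSEM divides reads between similar transcripts by estimate. Columns were matched by cell number and symbols by Ensembl ID (44548 rows). No cell was left out and no doublet caller was run. The CV trend was a lowess fit (span 0.3, log10 scales), and functions were tested on simulated data (Python 3.11.15, scipy 1.17.1, statsmodels 0.14.6). Identity came from global alignment (Biopython 1.88) of the longest coding transcript of each gene in GENCODE M21. The bound at cell 48 was taken from earlier results. Genes named are the members, the fixed lists, the 3 highest and 3 lowest correlations per pattern, of which examples are given, and neighbours within 200 kb in at least 11 cells. Members and lists were chosen with earlier results of these data known. Other scalings, filters, detection levels, pseudocounts and cell sets were tried as alternatives. One gene's values are not reported here.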

Additional observations from a re-analysis of the deposited data

How the results depend on the processing

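Over the 43 alternatives to the 7 summary results, 0 reversed a sign. Shares and counts cannot be negative, however. A reversal was possible only for the median correlation (13 alternatives) and the differences in family share (2 each). Signs of single pairs, and of single members between ranges of cell number, did turn with the scaling, as given above. The family's share was 66.4% when the other digestive enzymes were left out of the denominator, by construction of a smaller total, and lay between 19.1% and 20.3% otherwise. The share of Prss2 was 48.95% when TPM were weighted by transcript length, an alternative chosen after seeing the data, as were the separate counts of variable members in cells 1 to 48 and 49 to 91 and the pair and range values under each scaling. Between 6 and 8 members were called variable. Try4 was lost at 4 times the trend, where 4.08% of all tested genes were called. 1810009J06Rik entered with no filter on detection, where 14.75% of genes were called. At a detection level of 10 TPM, 7 members were detected in every cell. The family's share was higher in short-total than in full-total cells by 0.82 percentage points, and by 0.197 when every cell was given a total of 1000000, so this difference depends on the denominator. The median correlation between members ran from 0.087 as shares of the family to 0.33 outside the digestive enzymes. It was 0.136 as reported and 0.133 without cell 37. No paired analysis was possible because there was only 1 group. Read depth is unknown, and sequence shared between members limits their separate values.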
